A study of Homo sapiens with 2 samples.

Results

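Among serotonin neurons (SNs) made from human embryonic stem cells, 1185 cells carried transcripts of at least 2 of the 4 secreted-peptide and secreted-protein genes CRH, CRHBP, GAL and STC1. Each of these cells, called members here, also had at least 1 transcript of the serotonergic factor FEV and at most 1 of the glutamate transporter gene SLC17A8 (VGLUT3). Transcripts were counted as unique molecular identifiers (UMIs), each of which stands for 1 captured RNA molecule. The library labelled WT held 880 members among 6264 FEV cells, 6385 filtered cells and 11052 deposited barcodes. The library labelled FKO held 305 members among 6940 FEV cells, 7573 filtered cells and 8806 deposited barcodes. Members were chosen by these measured counts, so the levels of the 6 genes of the rule in members are descriptions and support nothing. All other FEV cells of the same library, 5384 and 6635, served as the comparison.

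Both libraries were made at day 42 of differentiation of the H9 (WA09) line with EGFP knocked into TPH2, the gene of the rate-limiting enzyme of neuronal serotonin synthesis, and EGFP-positive cells were sorted. WT cells carried the reporter alone. FKO cells carried the reporter and a FOXA2 knockout, in a line that the study's methods describe as picked clones with a premature stop codon left by Cas9 cutting and end joining. All cells received CHIR, SB-431542 and DMH1, then PUR, then FGF4, and later DAPT, GDNF, BDNF, TGFβ3, IGF1 and vitamin C. The PUR dose of these libraries, and whether RA was added to them, are not given in the sources used here. The library labelled WT held 123064653 UMIs with a median of 10959.5 per barcode, and the library labelled FKO held 70588747 with a median of 6669.5. Each condition had 1 library, so no replicate check exists and no test was made between or within the libraries. All intervals are exact 95% intervals (Poisson for counts and their ratios, Clopper-Pearson for shares) and cover counting error only.

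FOXA2 (ENSG00000125798, chromosome 20, GRCh38) had 375 UMIs over the filtered cells of the library labelled WT, or 4.31 counts per 1000000 UMIs (CPM). The filtered cells labelled FKO held 1517 FOXA2 UMIs (22.7 CPM), so transcripts of the targeted gene were not lower under the knockout label, and both libraries are called by their labels throughout. Counts of 3′ ends do not read the edited bases, and an exchange of labels was not tested. Among members FOXA2 had 1.64 CPM (25 UMIs) in the library labelled WT, against 9.66 CPM (44 UMIs) in the library labelled FKO. Other FEV cells had 4.57 and 18.1 CPM. Of the deposited barcodes 21 occurred in both libraries, 6 of them among filtered cells and 0 among members.

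Neurons of the raphe nuclei release serotonin and, in many subtypes, also neuropeptides, which are made as precursors, cut by convertases and stored with granins in dense-core granules. CRH encodes corticotropin-releasing hormone, the peptide that starts the pituitary stress response, and CRHBP encodes the secreted protein that binds and buffers it. GAL encodes galanin, a peptide that mostly inhibits neurons through its receptors and occurs in monoamine neurons of several species. STC1 encodes stanniocalcin, a secreted glycoprotein first known from calcium control in fish.

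The members were not uniform, and the name CRH and GAL peptidergic fitted few of them. Both CRH and GAL were found in 116 of the 880 members labelled WT (13.2%, 11.0% to 15.6%) and in 3 of the 305 members labelled FKO (0.984%, 0.203% to 2.85%). Neither was found in 93 (10.6%) and 196 (64.3%) of them. The members are therefore called here by the rule and by their leading genes. STC1 was the gene that most of them shared, with 851 (96.7%) in the library labelled WT, against 281 (92.1%) in the library labelled FKO. GAL was found in 716 members (81.4%) of the library labelled WT and in 19 (6.23%) of the library labelled FKO. CRHBP went the other way, with 175 members (19.9%) and 264 members (86.6%). CRH marked a minority in both, 187 members (21.2%, 18.6% to 24.1%) and 93 members (30.5%, 25.4% to 36.0%).

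GAL with STC1 alone was the largest combination in the library labelled WT, with 534 members (60.7%), against 7 (2.30%) in the library labelled FKO. CRHBP with STC1 alone was the largest in the library labelled FKO, with 196 members (64.3%), against 93 (10.6%) in the library labelled WT. The same rule thus selected mostly different pairs of genes in the 2 libraries. CRH, GAL and STC1 together made up 101 members labelled WT (11.5%), and CRH, CRHBP and STC1 together 37 members labelled FKO (12.1%). In the library labelled WT 718 members had 2 of the 4 genes, 155 had 3 and 7 had 4. The library labelled FKO had 259, 45 and 1.

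Most members passed the rule with few UMIs. The sum over the 4 genes in a member had a median of 7 UMIs (2 to 88) in the library labelled WT, against 4 UMIs (2 to 43) in the library labelled FKO. GAL stood at 1 UMI in each of the 19 GAL members labelled FKO, whereas it reached 20 UMIs in the library labelled WT. CRH reached 49 and 30 UMIs in single members, with a median of 2 among CRH members of each library. Just inside the rule, 128 and 64 members had 2 genes with 1 UMI each, and just outside it 1390 and 1122 FEV cells had 1 gene. At the SLC17A8 limit, 164 and 26 members had 1 UMI, and 41 and 10 cells that met the other limits had 2. At the FEV limit, 5 and 3 members had 1 UMI, and 3 and 4 cells that met the other limits had 0.

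Members were 14.05% (13.2% to 14.9%) of the FEV cells labelled WT, while the FEV cells labelled FKO had 4.39% (3.92% to 4.90%). Depth moved with these shares. Median UMIs were 16191.5 in members and 12125 in other FEV cells of the library labelled WT, and 12363 and 7072 in the library labelled FKO. Of FEV cells with 5000 to 10000 UMIs, 24 of 1289 (1.86%, 1.20% to 2.76%) and 86 of 3984 (2.16%, 1.73% to 2.66%) were members. From 10000 to 20000 UMIs the shares were 15.9% (14.8% to 17.03%) and 11.2% (9.58% to 12.9%), and from 20000 UMIs 28.4% (25.1% to 31.9%) and 14.6% (11.1% to 18.6%). Below 5000 UMIs, 0 of 146 and 3 of 1133 FEV cells were members. The share thus rose with depth in each library, and no difference between the libraries was tested in any bin.

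With each cell thinned to 2000 UMIs and the rule reapplied, 105 of 5666 FEV cells labelled WT (1.85%, 1.52% to 2.24%) and 31 of 5714 labelled FKO (0.543%, 0.369% to 0.769%) were members. Of these, 100 and 29 were also members on all their UMIs. Thinning left out 43 and 116 shallower filtered cells. Median mitochondrial shares were similar within a library, 7.59% in members and 7.92% in other FEV cells labelled WT, and 5.38% and 5.24% in those labelled FKO. Doublets were scored with Scrublet and kept in the main values, and the highest scores fell on 7.27% and 5.90% of members against 11.1% and 8.62% of other FEV cells. SLC17A8 also bore on the choice: of 1595 FEV cells labelled WT with 2 or more SLC17A8 UMIs 6.96% had 2 or more of the 4 genes, against 18.8% of those below. The FEV cells labelled FKO had nearly equal shares, 4.97% of 946 and 5.09%.

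**Figure D1:**
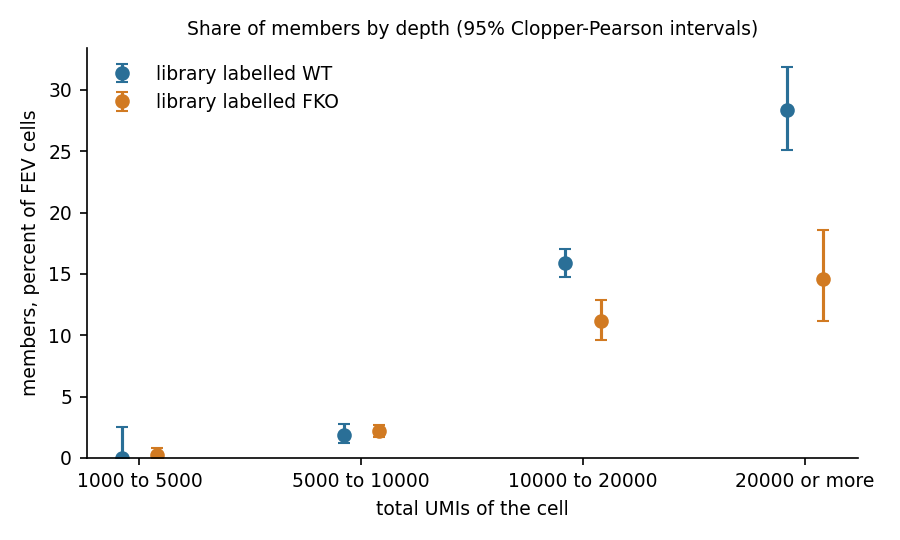
Members as a percent of FEV cells (vertical axis from 0) in 4 bins of total UMIs per cell, with 95% Clopper-Pearson intervals, by library. Shares rise with depth in both libraries, to 28.4% in the library labelled WT, but 14.6% in the library labelled FKO.

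Cells assumed to lack these genes were used as a background. Of 87 mesenchymal cells without FEV in the library labelled FKO (median 7347 UMIs), STC1, GAL and CRHBP were each found in 1 (1.15%) and CRH in 2 (2.30%). Of 37 cycling cells without FEV in that library (median 9296 UMIs), CRH and CRHBP were each found in 1 (2.70%), and GAL and STC1 in 0. The library labelled WT had 16 mesenchymal cells (median 15774.5 UMIs), of which 1 (6.25%) had STC1 and 0 had CRH, CRHBP or GAL, and 2 cycling cells with none of the 4 genes. By the share of cells, neither GAL nor CRH was shown to exceed this background in the library labelled FKO. They were found there in 0.256% and 0.919% of other FEV cells and in 0.568% and 2.11% of all filtered cells. The mesenchymal shares had intervals of 0.0291% to 6.24% for GAL and 0.28% to 8.06% for CRH. These are too wide to place either gene at the background. Higher shares in members are set by the rule.

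Each of the 4 genes was next read in cells chosen without it, so that the choice does not fix its count, although deeper cells pass more often. The 4 genes were put together with earlier results of these data known. The values here and for the pairs below thus describe that observation again and are no independent support. FEV cells with at most 1 SLC17A8 UMI were split by whether they had any of the other 3 genes. CRH had 24.6 CPM (23.0 to 26.3) in cells with another of the genes and 3.23 CPM (2.61 to 3.95) in cells without in the library labelled WT, a log2 ratio of 2.93 (2.62 to 3.25). The corresponding values in the library labelled FKO were 24.0 CPM (21.7 to 26.5) and 2.23 CPM (1.77 to 2.78), a log2 ratio of 3.43 (3.08 to 3.79), while its mesenchymal cells had 5.59 CPM (1.52 to 14.3) from 4 UMIs. CRH was thus higher where the other genes were found, and it kept this direction after thinning (2.60 and 2.97).

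STC1 behaved alike, with 294 against 69.3 CPM in the library labelled WT (log2 ratio 2.09, 2.02 to 2.15) and 77.1 against 22.8 CPM in the library labelled FKO (1.76, 1.63 to 1.89). GAL had 49.0 against 7.49 CPM in the library labelled WT (2.71, 2.51 to 2.91). With 19 and 18 UMIs in the library labelled FKO, its 1.12 and 0.504 CPM gave a log2 ratio of 1.14 (0.14 to 2.16), and thinning left 0 and 2 UMIs. CRHBP differed between the libraries. It had 58.6 against 24.2 CPM in the library labelled FKO (1.28, 1.13 to 1.42), but 8.18 against 7.91 CPM in the library labelled WT (0.05, -0.21 to 0.31), where a difference was not detectable. On thinned cells labelled WT this value was -0.49 (-1.77 to 0.58) with 8 CRHBP UMIs. With the full rule on a random part of each cell's UMIs, where CRHBP itself helps to choose the cells, its ratio in the remaining UMIs was 1.07 (0.63 to 1.49), which is no counterpart of the values above.

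Pairs of genes showed the same split. Of the 238 SLC17A8-low FEV cells with CRH in the library labelled WT, 48.7% had GAL and 73.1% had STC1, against 17.8% and 38.1% of those without CRH. CRHBP was found in 6.72% of the cells with CRH and 6.75% of those without, at median depths of 15822.5 and 12671 UMIs. In the library labelled FKO 44.0% of the 134 cells with CRH had CRHBP and 53.7% had STC1, against 14.5% and 10.8% of those without, at 11133 and 7175 UMIs. A CRHBP UMI was thus more frequent in cells with CRH in the library labelled FKO, but not in the library labelled WT. In the library labelled FKO these cells were also deeper, and the share of cells with CRH was not shown to exceed the background. After thinning, CRHBP was found in 16.7% of 42 cells with CRH and 3.79% of cells without in the library labelled FKO. In the library labelled WT it was found in 0 of 71 and 1.11%, too few to compare.

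Of the other genes in these systems few were measured. The CRH receptor genes had 1 UMI (CRHR1) and 0 UMIs (CRHR2) in the members of each library. The galanin receptor gene GALR1 had 4 and 3 UMIs, the second stanniocalcin gene STC2 had 6 and 1, and the CRH-related peptide gene UCN had 20 and 22. UCN2 and UCN3 had 0 UMIs in the members of both libraries. None of these genes reached the limit of 20 CPM set for a comparison. All UMIs of members came to 15286419 in the library labelled WT, but 4555430 in the library labelled FKO.

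TH, NRIP3 and PHLDA2 are not in the rule but were named as markers of these cells from earlier results of the same data, so their higher levels in members of both libraries describe that observation again and are no independent support. TH, tyrosine hydroxylase of catecholamine synthesis, had 33.9 CPM (31.0 to 36.9) in members and 13.0 CPM (12.2 to 13.9) in other FEV cells labelled WT, a log2 ratio of 1.38 (1.22 to 1.54). The library labelled FKO had 21.7 (17.7 to 26.5) and 6.30 CPM (5.67 to 6.98), a log2 ratio of 1.79 (1.45 to 2.11). A TH UMI was found in 38.9% of members and 13.7% of other FEV cells labelled WT, and in 24.6% and 4.67% of those labelled FKO. Thinned to 2000 UMIs these shares were 6.59% and 2.63%, and 4.26% and 0.926%, and in the mesenchymal cells TH had 0 UMIs in both libraries. Other catecholamine genes were mixed. DDC, the next enzyme and shared with serotonin synthesis, had 283 and 270 CPM in members (log2 ratios 0.06 and 0.21). PNMT, which makes adrenaline and is named after its values were seen, had 46 UMIs in members labelled WT, or 3.01 CPM against 7.90 in other FEV cells. The transporters SLC6A2 and SLC6A3 had 0 UMIs in members, and DBH, which makes noradrenaline, had 2 UMIs in members labelled WT and 0 in those labelled FKO.

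NRIP3 had 51.3 CPM in members and 14.6 CPM in other FEV cells labelled WT (log2 ratio 1.81, 1.67 to 1.94), and 71.1 and 26.5 CPM in those labelled FKO (1.42, 1.25 to 1.60). PHLDA2, an imprinted gene known to restrain placental growth, had 61.6 and 13.9 CPM (2.15, 2.02 to 2.28), and 18.9 and 6.25 CPM (1.59, 1.24 to 1.94). NRIP3 was found in 49.9% and 54.1% of members, and PHLDA2 in 47.7% and 21.97%. The mesenchymal cells had NRIP3 in 6.25% and 2.30%, and PHLDA2 in 0 of 16 and 8.05%, while 13.5% of the cycling cells labelled FKO had PHLDA2, so its share there stood on a raised background. PHLDA2 was under the limit of 20 CPM in the library labelled FKO and is outside the counts given below. Of 11 listed imprinted genes near PHLDA2 3 were compared. CDKN1C had log2 ratios of -0.31 and -0.12, CD81 0.19 and 0.24, and NAP1L4 -0.02 and -0.04, and 0 of the 3 were past 1.5-fold, where 0.838% of all genes were higher in both libraries.

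All 3 markers were graded with the number of the 4 genes in a cell. TH in the library labelled WT had 9.57 CPM with none of them, 20.1 with 1, 32.9 with 2 and 37.9 with 3 or 4, and in the library labelled FKO 4.15, 10.2, 20.3 and 27.6. NRIP3 had 9.67, 25.3, 47.5 and 66.4 CPM, and 24.6, 38.5, 70.3 and 74.8 CPM. PHLDA2 had 9.43, 23.4, 60.7 and 65.1 CPM, and 5.78, 8.82, 17.6 and 24.2 CPM. Cells with 1 gene thus lay between cells with none and the members in each case. The intervals of cells with 2 and with 3 or 4 genes overlapped, except for NRIP3 in the library labelled WT. Median UMIs rose along the same steps, from 11208 to 13619, 16024 and 17435 in the library labelled WT and from 6713 to 9249.5, 12042 and 16139.5 in the library labelled FKO, and the cells were those with at most 1 SLC17A8 UMI.

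Combinations differed in these markers as well. Among members labelled WT, GAL+STC1 cells had 35.9 CPM of TH, 51.4 of NRIP3 and 67.7 of PHLDA2. CRHBP+STC1 cells of that library had 23.5, 41.5 and 39.0 CPM, which placed them above the other FEV cells and below the GAL+STC1 cells for each marker. CRH+GAL+STC1 cells had 40.0, 62.9 and 71.5 CPM, and CRH+STC1 cells 24.7, 33.3 and 48.5 CPM. In the library labelled FKO, CRHBP+STC1 cells had 21.1 CPM of TH, 70.5 of NRIP3 and 14.9 of PHLDA2, and the 37 CRH+CRHBP+STC1 cells 28.3, 80.5 and 25.4 CPM. Each of these combinations had higher levels of all 3 markers than the other FEV cells of its library.

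Genes of the peptide granule that the rule did not use were higher in members, but only for a part of the list. Of 5728 genes that reached 20 CPM in members or in other FEV cells of each library, 48 were at least 1.5-fold higher in members in both (0.838%). Of the 17 genes of peptide processing and granules among them 5 were, namely VGF, SCG2, PCSK1, PCSK2 and PTPRN, and 0 were lower in both, where the background was 36 genes (0.628%). The median log2 ratio of the list was 0.06 and 0.09, against 0.01 and 0.00 over all genes compared. A gene could enter the comparison through members alone, as PCSK2 did, or through other FEV cells alone, as SULF1 of the floor plate list did. Each way favours genes that are high in that group, so the counts of higher and lower genes rest partly on this limit.

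VGF, a granin-like precursor of several peptides, had 663 CPM in members and 269 in other FEV cells labelled WT (log2 ratio 1.30, 1.27 to 1.33), and 552 and 190 CPM in those labelled FKO (1.54, 1.47 to 1.60). SCG2, the granin secretogranin II, had 805 and 401 CPM (1.005), and 702 and 354 CPM (0.99). PCSK1, the convertase that makes the first cuts in many prohormones, had 364 and 200.1 CPM (0.86), and 622 and 312 CPM (0.998). Its relative PCSK2 had 23.2 and 14.7 CPM (0.66, 0.48 to 0.83), and 32.0 and 15.7 CPM (1.03, 0.77 to 1.28), and PTPRN, a granule membrane protein, had log2 ratios of 0.90 and 0.73. On thinned cells PCSK2 had 0.01 in the library labelled WT, from 3 UMIs in members, so its place among the 5 did not hold there. The chromogranin genes did not share this. CHGA had log2 ratios of -0.18 and -0.06 and CHGB -0.26 and -0.44, and CPE, which trims the cut peptides, had -0.06 and 0.04.

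VGF also was graded with the number of the 4 genes, from 196 to 387, 638 and 761 CPM in the library labelled WT, and from 162 to 283, 521 and 684 CPM in the library labelled FKO. SCG2 went from 278 to 537, 784 and 887 CPM and from 306 to 440.2, 694 and 732 CPM. PCSK1 had 160.5, 266, 358 and 387 CPM, and 287, 416, 606 and 689 CPM. Each of the 3 genes had more pooled CPM at each further step in both libraries. At the last step the intervals overlapped for PCSK1 in the library labelled WT (347 to 368 and 366 to 410). They also overlapped for SCG2 in the library labelled FKO (668 to 722 and 676 to 791). On thinned cells the share with a UMI fell at this step for VGF labelled WT (63.4% to 63.0%) and PCSK1 labelled FKO (66.0% to 63.0%), and rose in the other cases. In cells of 5000 to 15000 UMIs the log2 ratios were 1.45 and 1.78 for VGF, 1.10 and 1.24 for SCG2, and 0.83 and 1.29 for PCSK1. Depths of members and other FEV cells within this range were not compared.

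**Figure D2:**
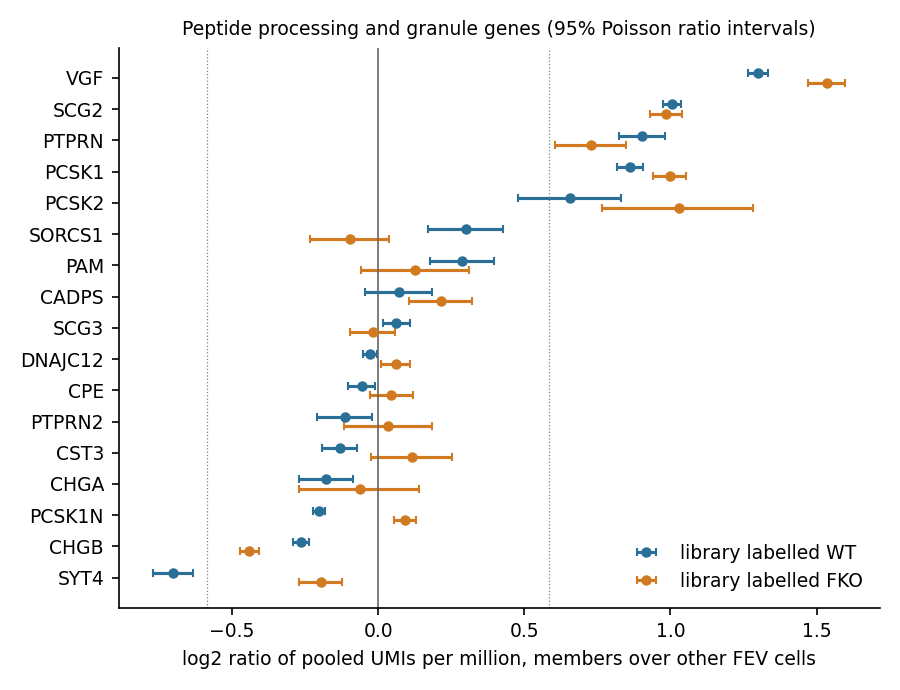
Log2 ratio of pooled CPM, members over other FEV cells, for the 17 granule and peptide-processing genes compared, by library, with 95% Poisson ratio intervals; dotted lines mark 1.5-fold and the solid line equal levels. VGF, SCG2, PTPRN, PCSK1 and PCSK2 lie right of the dotted line in both libraries, and CHGB lies left of the solid line in both.

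The promoters of VGF and PCSK1 are shown because both genes were higher in members and both carry the letters TGACGTCA, the palindromic cAMP response element, which reads the same on both strands. The sequences are from RefSeq (GRCh38.p14), run 5′ to 3′ on the minus strand and show the element in capitals. They end 24 (VGF) and 32 (PCSK1) bases before the RefSeq start of transcription, since GENCODE annotates those last bases as exon. VGF lies at chr7:101165594-101165819, upstream of the gene, with the element beginning 79 bases before the start. PCSK1 lies at chr5:96433281-96433498, with the element 77 bases before the start, and its window falls within introns of 2 longer annotated transcripts, PCSK1-203 and AC104123.1-201.
VGF: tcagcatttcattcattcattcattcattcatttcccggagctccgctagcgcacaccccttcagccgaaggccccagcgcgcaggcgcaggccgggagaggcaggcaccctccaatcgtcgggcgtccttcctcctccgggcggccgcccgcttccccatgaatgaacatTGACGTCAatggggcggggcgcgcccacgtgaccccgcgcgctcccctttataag
PCSK1: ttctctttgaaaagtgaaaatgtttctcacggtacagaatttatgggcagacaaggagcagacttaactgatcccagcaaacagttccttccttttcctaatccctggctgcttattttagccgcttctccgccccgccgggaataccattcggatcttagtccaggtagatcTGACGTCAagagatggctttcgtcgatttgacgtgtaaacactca
The element was found in 578 of 35116 promoter windows of 250 bases (1.65%), and 2.03% of 27305 genes had it in a window. Of the granule list 18 of 23 genes were in the table, and 3 had the element, CHGA, VGF and PCSK1, of which CHGA was not higher in members. Of the 48 genes higher in both libraries 37 were in the table, and 3 had it, CYSTM1, PCSK1 and VGF. A match is a description of these letters and shows no binding.

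Over all 5728 genes, 88 (1.54%) were at least 1.5-fold higher and 86 (1.5%) lower in members labelled WT, and 82 (1.43%) higher and 50 (0.873%) lower in those labelled FKO. Log2 ratios of the libraries had a Pearson r of 0.74 across genes, which are not independent and share the same rule, and 0 genes were past 1.5-fold in opposite directions. Against FEV cells with none of the 4 genes, 48 of the 48 higher genes and 27 of the 36 lower ones were again past 1.5-fold in both libraries. After thinning with the rule reapplied, 42 and 25 had the same direction in both.

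KRT18, an intermediate filament gene better known from epithelia, had the highest ratios, with 21.6 CPM in members and 4.12 in other FEV cells labelled WT (log2 ratio 2.39, 2.16 to 2.62) and 22.6 and 3.11 CPM in those labelled FKO (2.86, 2.50 to 3.22). It was found in 19.7% and 22.3% of members and in 4.07% and 2.11% of other FEV cells. ADAP2, which acts on the small GTPase ARF6, had 36.8 and 11.2 CPM (1.72), and 50.7 and 14.8 CPM (1.78). RBP4, a carrier of retinol, had 24.7 and 8.13 CPM (1.60), and 24.8 and 9.32 CPM (1.41). KRT18, ADAP2 and RBP4 reached 20 CPM in members only, in both libraries. Their place among the compared genes, and the rank of KRT18, thus rest partly on the limit. These 3 genes had nearly equal levels in the members of both libraries or differed by less than 1.5-fold.

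Among the other genes that led outside the lists, SPRY1, an inhibitor of growth factor signalling, had log2 ratios of 1.06 and 1.24, and DLK1, an imprinted membrane ligand, 1.56 and 0.95. HS6ST3, a heparan sulfate sulfotransferase, had 1.27 and 0.97, IL13RA2, a decoy receptor, 0.98 and 1.01, and ANO3 1.09 and 1.37. The related long noncoding RNA genes MIR4435-2HG and CYTOR had 1.27 and 1.97, and 1.18 and 1.46, and since they are near-identical copies their counts can be split between them and are uncertain. CLIC1, PLS3, DOK5, CYSTM1 and S100A10 lay between 0.84 and 1.35 in both. ANO3, MIR4435-2HG and DOK5 reached 20 CPM in members only, in both libraries. The same held for HS6ST3 in the library labelled WT and CYTOR in the library labelled FKO. The places of these genes thus rest partly on the limit. On thinned cells with the rule reapplied ANO3 had 0.30 and 1.45, so it was within 1.5-fold in the library labelled WT.

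Outside the lists, the genes lower in members were led by ENC1, an actin-binding protein of the nervous system, with 19.6 CPM in members and 64.3 in other FEV cells labelled WT (log2 ratio -1.71, -1.88 to -1.54), and 107 and 242 CPM in those labelled FKO (-1.17, -1.31 to -1.04). The homeobox gene UNCX had log2 ratios of -1.26 and -1.04, and DACH1, a transcriptional cofactor, -1.09 and -0.96. PCDH11X, a protocadherin, had -1.48 and -0.97, RALYL -1.42 and -0.88, and PDZRN4 -0.97 and -0.93. ARID5B, TLE1, MIR4500HG and SOX2-OT, which overlaps SOX2, lay between -1.20 and -0.90 in both libraries. In the library labelled WT, ENC1, UNCX and TLE1 reached 20 CPM in other FEV cells only, so their places rest partly on the limit. Against FEV cells with none of the 4 genes MIR4500HG had -0.57 and -0.46 and RALYL -0.90 and -0.37, so neither was past 1.5-fold in both there. On thinned cells with the rule reapplied, UNCX (-0.50), PCDH11X (-0.23), SOX2-OT (-0.30) and TLE1 (-0.44) were within 1.5-fold in the library labelled FKO. ARID5B was within it in both libraries, with -0.46 and -0.30. The other genes of this paragraph were past 1.5-fold in both on thinned cells.

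Most serotonergic genes compared were close to the other FEV cells in members, and GATA2 was lower. Of 11 compared, 0 were higher and 1 lower by at least 1.5-fold in both libraries, where 0.838% and 0.628% of all genes were. A count of 0 in a list this short says little. In the library labelled WT 0 were higher and 3 lower, namely GATA2, SLC6A4 and POU3F2 (log2 ratio -0.64). Over all genes 1.54% were higher and 1.5% lower there, so the 3 of 11 lay above the share. In the library labelled FKO 1 was higher, MAOB, and 1 lower, GATA2, where 1.43% and 0.873% of all genes were. The median log2 ratios were -0.21 and -0.10. FEV itself, which the rule used, had 1592 and 1619 CPM in members and other FEV cells labelled WT, and 908 and 969.9 CPM in those labelled FKO. GATA2, a factor upstream of the serotonergic programme, had 10.1 and 27.7 CPM (log2 ratio -1.46, -1.71 to -1.22), and 23.7 and 45.4 CPM (-0.94, -1.23 to -0.66). GATA3 differed less, with -0.33 and -0.23, and LMX1B had -0.21 and -0.10.

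TPH2, the gene behind the sorted reporter, had 145 CPM in members and 212 in other FEV cells labelled WT (log2 ratio -0.55, -0.62 to -0.49), and 140.1 and 172 CPM in those labelled FKO (-0.29, -0.41 to -0.18). Against FEV cells with none of the 4 genes and at most 1 SLC17A8 UMI, the ratios were 0.09 and -0.10. On thinned cells with the rule reapplied they were -0.81 and -0.93, from 27 and 6 TPH2 UMIs in members, so the TPH2 ratio depended on the cells and depth compared. DDC, the second enzyme of serotonin synthesis, had 0.06 and 0.21, and PTS, an enzyme of its cofactor's synthesis, 0.30 and 0.41. The transporter gene SLC6A4 had 13.0 and 23.0 CPM (-0.83, -1.05 to -0.62) in the library labelled WT and 46.3 and 46.8 CPM (-0.02, -0.22 to 0.19) in the library labelled FKO. On thinned cells with the rule reapplied SLC6A4 had -0.03 and -0.12, so it was within 1.5-fold in both libraries there. MAOB, which degrades monoamines, had 0.14 (0.08 to 0.20) and 0.59 (0.50 to 0.69). On all UMIs most of the compared serotonergic genes were thus within 1.5-fold of the other FEV cells.

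Few other transmitter and peptide genes were measured in members. ACHE, which breaks down acetylcholine, was the gene of the glutamate, GABA and acetylcholine list with enough UMIs to compare, and it was higher, with log2 ratios of 0.64 (0.52 to 0.76) and 0.84 (0.66 to 1.02). The list summed to 59.3 CPM in members and 44.9 in other FEV cells labelled WT, and to 88.5 and 65.6 CPM in those labelled FKO, most of it ACHE. Of 32 other neuropeptide genes TAC1, which encodes substance P, was compared. It had 376 and 308 CPM in the library labelled WT (0.29, 0.24 to 0.33), and 2202 and 1307 CPM in the library labelled FKO (0.75, 0.72 to 0.78), where it was found in 98.0% of members and 86.2% of other FEV cells. SST, the somatostatin gene, was singled out after its values were seen, since 440 of its 446 UMIs in members labelled WT came from 1 cell. QDPR, which recycles the cofactor of TH and TPH2, had 0.28 and 0.46.

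Of 13 mature neuronal genes compared 0 were past 1.5-fold in both libraries, where 0.838% of all genes were higher and 0.628% lower, and the medians were 0.06 and 0.10. SNAP25, a protein of vesicle fusion, had 0.61 and 0.48, and the neurofilament gene NEFL 0.55 and 0.66. STMN2, the most abundant gene of the list, had 0.04 and 0.03. RBFOX3, which encodes the neuronal antigen NeuN, the neurofilament gene NEFH and the splicing factor gene RBFOX1 were the 3 under the limit and are named after their values were seen. RBFOX3 was higher in both libraries, 1.13 (0.90 to 1.36) and 0.95 (0.73 to 1.17), NEFH had 0.70 and 0.55, and RBFOX1 had -0.07 and -0.65.

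Of 5 immediate early genes compared 1, FOS, was higher in both libraries, where 0.838% of all genes were. FOS had 49.0 and 25.9 CPM (0.92, 0.80 to 1.05) in the library labelled WT and 51.4 and 29.5 CPM (0.80, 0.60 to 0.998) in the library labelled FKO. IER2 had 0.76 and 0.47, and JUN -0.51 and -0.24, and the medians of the list were 0.22 and 0.31. On thinned cells FOS had 1.19 and 0.09, the latter from 2 UMIs in members. Of the 11 genes under the limit, named after their values were seen, EGR1 had 1.12 and 0.53, JUNB 0.52 and 0.69, FOSL2 1.79 and 1.82, EGR3 2.38 and 1.40, and NR4A3 1.01 and 0.76. NR4A1 had -0.51 and -0.29. EGR3 in the library labelled FKO had an interval of -0.02 to 2.59. BTG2 had -0.53 and 0.09, NPAS4 0.04 and 0.55, and DUSP1, which was compared, -0.12 and -0.24. FOS was thus the immediate early gene that met both the CPM limit and 1.5-fold in both libraries.

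In the list of cAMP and calcium signals 11 genes were compared and 0 were past 1.5-fold in both libraries, with medians of -0.02 and 0.05. CREM, a factor of the cAMP response, had 0.10 and 0.68, and CALB1, a calcium-binding protein, -0.80 and -0.44. Of 6 integrated stress response genes and 5 hypoxia and glycolysis genes compared 0 were past 1.5-fold in either library, with medians of -0.21 and -0.09, and of 0.31 and 0.15. The LDHA log2 ratios of 0.45 and 0.55 were the highest of the hypoxia list. With 0.838% and 0.628% of all genes higher and lower in both libraries, counts of 0 in lists this short say little.

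Few position and subtype factors had enough UMIs to compare, 2 of 19 in the LIM-homeodomain and hindbrain list and 1 of 16 in the rostrocaudal list. NR2F2 and NR2F1, nuclear receptors of the first list, had log2 ratios of 0.12 and 0.15, and of -0.30 and -0.01. EN1, a factor of the midbrain-hindbrain boundary, had 63.5 CPM in members and 73.0 in other FEV cells labelled WT, and 129.5 and 168 CPM in those labelled FKO (-0.20 and -0.37). HOX genes were scarce, and 13 of the 16 rostrocaudal genes had 0 UMIs in members labelled FKO and 10 in those labelled WT.

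Summed markers of other cell types were lower in members, by differing amounts and with few genes compared. The 9 floor plate genes summed to 16.6 CPM in members and 93.4 in other FEV cells labelled WT, and to 37.1 and 87.2 CPM in those labelled FKO. Their most abundant gene was SULF1 in these groups except in members labelled FKO, where it was FOXA2. Both compared genes, SPON1 (log2 ratios -2.58 and -1.51) and SULF1 (-2.75 and -1.53), were lower in both libraries, where 0.628% of all genes were. Both reached 20 CPM in other FEV cells only, so their place among the compared genes rests partly on this limit. FERD3L had 0 UMIs in members of both libraries and CORIN in those labelled FKO. Since the other FEV cells carry these genes in few cells (SULF1 in 5.33% and 3.41%), the ratios rest on a small part of them.

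The 10 cycling genes summed to 32.4 CPM in members and 118 in other FEV cells labelled WT, and to 71.8 and 101 CPM in those labelled FKO, with HMGB2 the most abundant in each group and NUSAP1 at 0 in members labelled FKO. HMGB2, the gene of the list compared, had -1.13 and -0.19, which is within 1.5-fold in the library labelled FKO. None of the 10 mesenchymal genes was compared, and they summed to 13.0 and 40.0 CPM, and to 87.8 and 183 CPM, led by collagen genes, with PDGFRA at 0 in members labelled WT. The 14 glial and progenitor genes summed to 841 and 955 CPM, and to 943 and 1051 CPM, with VIM the most abundant and nearly equal (-0.01 and -0.06), AQP4 at 0 in members of both libraries and PDGFRA at 0 in those labelled WT. Of its 4 genes compared 1 was lower in both libraries, where 0.628% of all genes were. This gene was SOX2, a progenitor factor, with 50.6 and 116 CPM (-1.20, -1.31 to -1.10), and 42.4 and 79.9 CPM (-0.92, -1.13 to -0.71). The part of these cells in the lower genes was not tested.

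The 11 hypothalamic genes, listed because CRH and GAL neurons are known there, had 0 compared and summed to 13.3 CPM in members and 17.6 in other FEV cells labelled WT, and to 7.02 and 42.6 CPM in those labelled FKO. HCRT was the most abundant in each group. NKX2-1 and SIM1 had 0 UMIs in members labelled WT, OXT and POMC in those labelled FKO, and RAX, FEZF1, AGRP and PMCH in both.

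The libraries differed in members and in the other FEV cells. Over 7168 genes of at least 20 CPM in members of 1 library or both, log2 ratios (library labelled FKO over library labelled WT) had a median of 0.41 in members and 0.43 in other FEV cells, and values below are less the median of their set of cells. In members 1509 genes (21.1%) were higher and 1774 (24.7%) lower by at least 1.5-fold, so single genes past this fold are common. TAC1 stood at 2.14 in members and 1.66 in other FEV cells, SLC6A4 at 1.42 and 0.60, and GATA2 at 0.82 and 0.29. CLIC1 was lower in the library labelled FKO in both sets of cells, with -2.77 and -3.06. PHLDA2 had -2.12 and -1.57, and TH -1.06 and -1.47, whereas NRIP3 had 0.06 and 0.43.

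Of all 7168 genes compared between the libraries, 21.1% were higher and 24.7% lower by at least 1.5-fold in members labelled FKO. Of the serotonergic list, 8 of 14 genes were higher and 1 lower there, with a median of 0.62. The granule list had 5 higher and 5 lower of 19, near the shares over all genes, with a median of -0.24. All 5 hypoxia and glycolysis genes past 1.5-fold, of 7, were lower there, with a median of -1.09. Of the mature neuronal list 4 of 14 were higher, near the share over all genes, and 0 were lower. Among the genes of the rule, whose levels in both sets of cells are set partly by the rule, GAL stood at -5.05 in members and -4.68 in other FEV cells, CRHBP at 2.44 and 1.89, and STC1 at -1.33 and -2.02. CRH went opposite ways, with 0.27 and -1.13. Batch and genotype cannot be told apart with 1 library each.

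Few members lay mainly among other members. On thinned cells, with the 6 genes of the rule left out, an average of 27.9% of the 30 nearest neighbours of a member labelled WT were members, against 11.3% for other FEV cells and 14.1% of all cells used. In the library labelled FKO these values were 14.1%, 3.97% and 4.43%. Of members 6.48% and 0.984% had mostly members as neighbours. This share depended on the settings, with 16.7% and 3.61% for 15 principal components and 12.5% and 4.26% for 15 neighbours, and 3.86% and 0% for 50 neighbours. Members were thus a larger share of the neighbours of members than of the neighbours of other FEV cells. Even so, most neighbours of a member were on average other FEV cells.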

How the data were processed

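The matrices that the authors deposited hold UMI counts that were not normalized, for 2 libraries of sorted TPH2-EGFP cells (10x Genomics 3′ v3, aligned to GRCh38). The file header names Cell Ranger 7.1.0 and the submitters' processing notes 7.0.

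Kept barcodes had 1000 or more UMIs, 500 or more genes and no more than 10% of UMIs from MT- genes. UMIs were pooled over the cells of a group and scaled to 1000000 (CPM). Log2 ratios had no pseudocount, a count of 0 stood at 3 counts, and no ratio was taken where both groups were at or under 3. Genes of at least 20 CPM in members or other FEV cells of each library were compared, without the rule genes and MT- genes. Thinning was to 2000 UMIs per cell. Neighbours used 2000 variable genes and 30 principal components. Scrublet ran in scanpy 1.11.5. Scripts used numpy 2.4.6 and scipy 1.17.1 and were tested on simulated data.

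Named genes are those of the rule, the markers, FOXA2, genes of 23 lists that met the CPM limit, and outside the lists the 15 highest and 10 lowest by the smaller ratio of both libraries with 1 sign in both, also after thinning. Genes named under the limit were chosen after their values were seen. The members and lists were chosen with earlier results of these data known. Promoters came from RefSeq, annotation from GENCODE. Alternatives changed filters, the rule, depth, doublets, pooling, comparison cells and CPM limits.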

Additional observations from a re-analysis of the deposited data

How the results depend on the processing

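Results moved with depth, with the rule and with the comparison cells, and the cause of each move was not tested. CRHBP in the library labelled WT changed sign on thinned cells, with an interval that held 0. Members were 14.05% and 4.39% of the FEV cells labelled WT and FKO. On thinned cells they were 1.85% and 0.543%, in cells of 5000 to 15000 UMIs 8.0% and 3.91%, with 2 UMIs in each of 2 genes 6.26% and 1.35%, and with 3 of the 4 genes 2.59% and 0.663%. Without STC1, an alternative chosen after the data were seen, they were 3.03% and 1.01%. With at most 5% mitochondrial UMIs the share labelled WT was 10.4%, from 34 members. It was also 12.1% with at most 20% mitochondrial UMIs and 11.4% with SLC17A8 at 0. The share labelled FKO was 5.29% among cells with TPH2. The 48 higher and 36 lower genes were 240 and 252 on thinned cells, where 105 and 31 cells passed the reapplied rule. Of these genes 29 and 15 were among the first. With at most 5% mitochondrial UMIs, from 34 and 123 members, 33 were higher and 30 lower, of which 24 and 15 were among the first. With 2 UMIs in each of 2 genes 57 were lower. From 5 CPM 114 were higher and 119 lower, and from 100 CPM 10 were higher and 2 lower. Cells with STC1 alone, also chosen after the data were seen, had 14 genes higher and 3 lower than cells with none of the 4 genes. Over the alternatives, 496 of 1227 log2 ratios of 41 named genes lay outside their interval in the main setting. Genes read in cells chosen without them moved too. On thinned cells labelled WT the log2 ratios were 2.60 for CRH, -0.49 for CRHBP, 1.90 for GAL and 1.63 for STC1, and on those labelled FKO 2.97 for CRH, 1.48 for CRHBP and 1.63 for STC1, with no value for GAL (0 and 2 UMIs). With the full rule on a random part of the UMIs, where each gene helps to choose the cells, the ratios in the remaining UMIs are no counterpart of these and were 3.997 for CRH, 1.07 for CRHBP and 2.58 for STC1 in the library labelled WT, and 5.38 for CRH, 2.13 for CRHBP and 3.03 for STC1 in the library labelled FKO. With 15 principal components 31.4% of the neighbours of members labelled WT were members, and 16.7% and 3.61% of members had mostly members as neighbours, against 6.48% and 0.984%, and 3.86% and 0% with 50 neighbours.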

Other observations

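Each condition had 1 library, made from 1 line, with or without the FOXA2 edit beside the reporter, so differences between the libraries cannot be assigned to FOXA2, clone, PUR dose, batch or depth. FOXA2 counts were not lower under the knockout label. The intervals leave out variation between cultures. Members pass with few UMIs and were chosen from earlier results of the same data, so no share or level of a rule gene tests them. Transcripts do not show that a peptide was made or released.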
